A study of Homo sapiens with 3 samples.

Results

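Pseudogene copies of 26 abundant non-ribosomal genes were measured in RNA from HEK293T cells, a human embryonic kidney line (so named in the labels' cell line field, while the sample titles write HEK293). The copies were found by name, as a parent gene's symbol followed by P and a number, and were selected on their own read counts, with 20 or more reads required in the control library. Of 573 rows with such a name, 257 passed, in a table of 57268 rows. These 257 copies belong to 24 parent genes, since no ENO1 copy passed and no row had the name of an HSPE1 copy. The table holds 3 libraries, 1 per group. The first came from cells that overexpressed ADAR2, an enzyme that turns adenosine into inosine in double-stranded RNA, together with SRSF9, a splicing factor of the SR family (ADAR2+SRSF9). The second came from cells that overexpressed ADAR2 alone (ADAR2), and the third from cells with no overexpression (control). The series addresses how SRSF9 affects editing by ADAR2, while the values here are reads per gene and not editing levels.

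A processed pseudogene arises when a messenger RNA is copied back into DNA by the LINE-1 machinery and the copy is inserted elsewhere in the genome. Such a copy carries no introns and usually no promoter of its own, and mutations build up in it over time. Genes that are highly expressed in the germ line, among them those for translation factors, glycolytic enzymes and RNA-binding proteins, have left many copies. A read from a copy can be told from a read of its parent only where their letters differ.

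In the annotation used here, 238 of the 257 copies are typed as processed pseudogenes and 11 as transcribed processed pseudogenes. The other types are transcribed unprocessed pseudogene (3 copies), unprocessed pseudogene (2) and protein-coding gene (2, HNRNPA1P48 and HNRNPCP5), and 1 copy, HMGB1P24, had no entry. Aligned to the closest protein-coding transcript of the parent, the 256 copies with an entry shared a median of 93.8% of aligned bases with it, with a range of 72.7 to 99.7%. The median copy carried 52 mismatches, and its longest run without one was 71.5 bases. HNRNPA1 had 47 copies, EEF1A1 and NPM1 24 each and GAPDH 20, while LDHB, NACA, PGK1 and TPT1 had 1 each.

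The first 60 bases from the parent's start codon are shown for EEF1A1 and 4 of its copies, because they show copies of 1 parent with few and with more mismatches, and were picked with their values known. All sequences are from GENCODE v29 transcripts (GRCh38), are written 5′ to 3′, and have in capitals the bases that differ from the parent.
EEF1A1: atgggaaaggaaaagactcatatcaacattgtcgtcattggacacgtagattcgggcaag
EEF1A1P5: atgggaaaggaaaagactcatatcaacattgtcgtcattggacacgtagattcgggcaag
EEF1A1P6: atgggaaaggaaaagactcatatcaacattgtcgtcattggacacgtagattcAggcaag
EEF1A1P19: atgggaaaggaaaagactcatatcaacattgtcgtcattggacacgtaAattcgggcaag
EEF1A1P22: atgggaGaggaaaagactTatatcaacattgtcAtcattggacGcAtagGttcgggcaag
EEF1A1P5 lies on chromosome 9, EEF1A1P6 on 7, EEF1A1P19 on 5 and EEF1A1P22 on 15. Within this window EEF1A1P5 had 0 mismatches, EEF1A1P6 and EEF1A1P19 had 1 each and EEF1A1P22 had 6. Over the whole alignment the 4 copies were 99.7%, 99.5%, 97.0% and 93.5% identical to EEF1A1.

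The same window is shown for NPM1 and KRT18 with 2 copies each, because the family median log2 ratio of the ADAR2+SRSF9 library over the ADAR2 library was -0.60 for NPM1 copies and 0.05 for KRT18 copies.
NPM1: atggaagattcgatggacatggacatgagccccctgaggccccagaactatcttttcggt
NPM1P24: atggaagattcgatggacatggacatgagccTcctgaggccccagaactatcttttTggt
NPM1P46: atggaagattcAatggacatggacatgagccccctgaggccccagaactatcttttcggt
KRT18: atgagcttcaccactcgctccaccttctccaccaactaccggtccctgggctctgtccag
KRT18P31: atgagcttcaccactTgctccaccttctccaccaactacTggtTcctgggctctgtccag
KRT18P5: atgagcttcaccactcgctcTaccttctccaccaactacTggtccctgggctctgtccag
NPM1P24 (chromosome 10) and NPM1P46 (chromosome 2) had 2 and 1 mismatches in the window, and KRT18P31 (chromosome 5) and KRT18P5 (chromosome 22) had 3 and 2. These copies were picked with their values known and do not stand for their families. KRT18P31 and KRT18P5 had log2 ratios of 2.55 and 0.64, above the family median, while 6 of the 14 KRT18 copies were below 0.

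Total counts were 97875935 reads in the ADAR2+SRSF9 library, 132887974 in the ADAR2 library and 152878282 in the control, and levels are given as CPM, reads per 1000000 reads after scaling of library size. The overexpressed genes matched the labels: ADARB1, which encodes ADAR2, stood at 13647, 16100.0 and 113.6 CPM, and SRSF9 at 18288, 369 and 372 CPM, in the ADAR2+SRSF9, ADAR2 and control libraries. All 9 markers of HEK293 cells were detected in each library, with a summed level of 798, 845 and 841 CPM in the same order. The 9 red blood cell markers summed to 1341 CPM in the ADAR2+SRSF9 library, 17.4 CPM with ADAR2 alone and 15.2 CPM in the control. HBD (90665 reads) and HBB (36744 reads) made up nearly all of that sum in the ADAR2+SRSF9 library, where HBG2 was at 0. HBG1 was at 0 in the control. The 6 fibroblast markers summed to 40.3, 34.3 and 35.3 CPM, with DCN at 0 in the ADAR2+SRSF9 library, and the 6 white blood cell markers to 5.31, 4.71 and 4.63 CPM, with PTPRC at 0 there. The globin level sets apart the ADAR2+SRSF9 library, in which the copies also differ, and its part in the values below was not tested. With 1 library per group no difference has a replicate check and no p-value is given. Intervals are 95% exact Clopper-Pearson intervals of a ratio of counts and cover counting error only. In RNA from a whole culture, fewer cells of a type and less RNA per cell cannot be told apart.

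Most copies were lower in the ADAR2+SRSF9 library than in the ADAR2 library, while most parents were not. The median copy stood at a ratio of 0.738, a log2 ratio of -0.44, with quartiles of -0.65 and -0.15, and 211 of the 257 copies were below 0. A copy was counted as lower by 1.5-fold when its ratio was 1/1.5 or less and its counting interval excluded 1, and as higher by the same rule in the other direction. By this rule 70 of 257 copies were lower (27.2%), against 5.86% of all 23327 rows with 20 or more control reads, and 11 were higher (4.28%), against 4.22% of those rows. The 24 parents had a median log2 ratio of 0.08 and ranged from -0.09 to 0.15, and none was 1.5-fold apart. Of these parents 4 were below 0, 3 of them with an interval below 1, and 17 had an interval above 1. The median was 0.01 over all 23327 rows and 0.02 over the 14877 protein-coding rows among them.

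**Figure D1:**
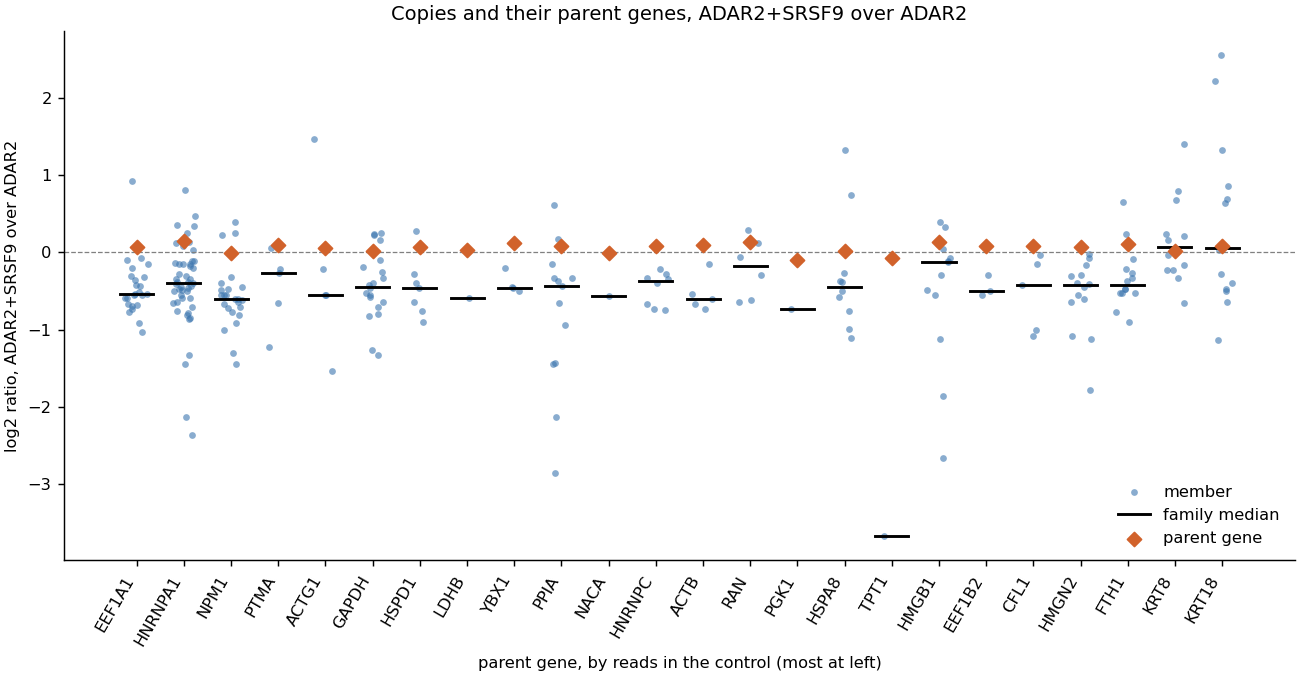
Log2 ratio of ADAR2+SRSF9 over ADAR2 (vertical axis) for each copy (points), the median of its family (line) and the parent gene (diamond), with parents ordered from most to fewest control reads. The diamonds lie between -0.09 and 0.15, and the family median lies below the parent in 23 of 24 families.

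Set against its own parent, a copy's log2 ratio was lower by a median of 0.52 (quartiles -0.73 and -0.25), a ratio of 0.700, and 221 of 257 copies lay below their parent. The family median lay below the parent in 23 of 24 families, the exception being KRT8. Summed over all copies, the level was 5185 CPM in the ADAR2+SRSF9 library, 6089 CPM with ADAR2 alone and 6176 CPM in the control. The summed ratio of ADAR2+SRSF9 to ADAR2 was 0.852 (0.849 to 0.855), and without the EEF1A1 family, which holds the 3 copies with most reads, it was 0.813 (0.808 to 0.818). The summed parents stood at 40589, 38719 and 40940 CPM in the ADAR2+SRSF9, ADAR2 and control libraries, a ratio of 1.05 for ADAR2+SRSF9 over ADAR2.

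Copies of translation genes had a median log2 ratio of -0.54 for ADAR2+SRSF9 over ADAR2 (29 copies, 7 lower and 1 higher by 1.5-fold), with parents from -0.08 to 0.08. EEF1A1 encodes the factor that brings aminoacyl-tRNA to the ribosome, and 23 of its 24 copies were below 0, with a family median of -0.54. EEF1A1 itself was at 12918 CPM in the ADAR2+SRSF9 library, 12330 CPM with ADAR2 alone and 13645 CPM in the control. EEF1A1P5, the copy with most reads, had 2358, 2518 and 2668 CPM in the same libraries, a ratio of 0.937 (0.932 to 0.942) for ADAR2+SRSF9 over ADAR2. EEF1A1P5 thus stood slightly lower, by less than the 1.5-fold rule asks, and 3 other copies whose sequences are shown above stood lower still. EEF1A1P6 had 732, 905 and 914 CPM, a ratio of 0.809 (0.802 to 0.817). EEF1A1P19 had 72.1, 108 and 106 CPM, a ratio of 0.667 (0.648 to 0.686). EEF1A1P22 had 9.15, 18.7 and 18.0 CPM, a ratio of 0.489 (0.452 to 0.528). These copies were picked with their values known, and identity did not order the family: EEF1A1P13, 98.1% identical, had a log2 ratio of -0.52, while EEF1A1P12 at 97.5% had -0.42 and EEF1A1P11 at 97.3% had -0.32. EEF1B2 encodes the exchange factor of the EEF1A1 protein, and its copy with most reads, EEF1B2P3, had 21.4, 26.2 and 26.8 CPM, a log2 ratio of -0.29. NACAP1, the copy of the gene for the alpha subunit of the nascent polypeptide-associated complex, had 4.95, 7.34 and 7.75 CPM, a log2 ratio of -0.57. TPT1 encodes translationally controlled tumour protein, and TPT1P1 had 1, 24 and 27 reads, the lowest ratio of all copies at 0.0785 with an interval from 0.00142 to 0.358. Reads of EEF1A1P16 were 205, 542 and 621, a log2 ratio of -0.92 that placed it among the 10 lowest copies with 100 or more control reads.

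Copies of glycolysis genes had a median log2 ratio of -0.49 (22 copies, 6 lower, 0 higher), with parents from -0.09 to 0.03. GAPDH encodes glyceraldehyde-3-phosphate dehydrogenase, and 16 of its 20 copies were below 0. GAPDHP1 had 35.7 CPM in the ADAR2+SRSF9 library, 47.0 CPM with ADAR2 alone and 44.4 CPM in the control, a ratio of 0.758 (0.727 to 0.791). GAPDHP70 had 53, 178 and 176 reads in the same libraries, a ratio of 0.419 (0.301 to 0.570). GAPDHP70 passed the 1.5-fold rule and GAPDHP1 did not. The copy of the phosphoglycerate kinase gene, PGK1P2, had 1.01, 1.68 and 2.25 CPM, a log2 ratio of -0.73 for ADAR2+SRSF9 over ADAR2. LDHBP2, a copy of a lactate dehydrogenase gene, had 2.15, 3.23 and 3.34 CPM, a log2 ratio of -0.59. The glycolytic enzyme gene ENO1, which had 4 named copies under the read minimum, stood at 2524, 2534 and 2479 CPM.

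Copies of protein folding genes had a median log2 ratio of -0.45 (30 copies, 10 lower, 1 higher), with parents from 0.01 to 0.09. HSPA8 encodes the constitutive chaperone HSC70, and HSPA8P1 had 243 reads in the ADAR2+SRSF9 library, 678 in the ADAR2 library and 622 in the control, a ratio of 0.502 (0.432 to 0.582). HSPD1P1, the copy of the mitochondrial chaperonin gene with most reads, had 68.0, 82.3 and 83.2 CPM in the same libraries, a log2 ratio of -0.27. PPIA encodes the prolyl isomerase cyclophilin A, and 11 of its 13 copies were below 0. PPIAP22 had 90.0, 99.8 and 97.3 CPM, a ratio of 0.902 (0.878 to 0.927), and PPIAP19 had 1.84, 3.52 and 2.93 CPM, a ratio of 0.522 (0.436 to 0.621). PPIAP22, with more reads, thus lay nearer to the parent than PPIAP19. HSPE1, the gene for the partner chaperonin, stood at 62.3, 57.6 and 57.3 CPM.

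Copies of RNA-binding protein genes had a median log2 ratio of -0.40 (59 copies, 15 lower, 1 higher), with parents from 0.08 to 0.15. HNRNPA1 encodes a nuclear RNA-binding protein that takes part in splicing, and stood at 4111, 3704 and 3724 CPM, the highest parent ratio for ADAR2+SRSF9 over ADAR2. Of its 47 copies, 38 were below 0 and 42 were below the parent. HNRNPA1P10 had 151, 174 and 165 CPM, a ratio of 0.866 (0.849 to 0.885). HNRNPA1P48, typed as protein-coding, had 93.8, 115 and 107 CPM, a log2 ratio of -0.30. Lower in the family were HNRNPA1P15, with 112, 395 and 402 reads and a log2 ratio of -1.33, and HNRNPA1P8, with 621, 1574 and 1745 reads and a log2 ratio of -0.86. HNRNPC encodes another nuclear RNA-binding protein, and all 8 of its copies were below 0. HNRNPCP2 had 55.5, 67.6 and 68.5 CPM, a log2 ratio of -0.28. YBX1P1, a copy of the gene for a cold-shock domain RNA-binding protein, had 93.4, 108 and 105 CPM, a log2 ratio of -0.20.

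Copies of chromatin and nucleolus genes had a median log2 ratio of -0.52 (56 copies, 21 lower, 0 higher), with parents from -0.01 to 0.13. NPM1 encodes nucleophosmin, a protein of the nucleolus, and had the most copies lower by 1.5-fold together with HNRNPA1, 12 of 24, beside 12 of 47. NPM1 itself was at 3018 CPM in the ADAR2+SRSF9 library, 3032 CPM with ADAR2 alone and 3351 CPM in the control. NPM1P27, which overlaps FAM172A on the same strand, had 89.7, 122 and 124 CPM, a ratio of 0.734 (0.715 to 0.754). NPM1P24 had 13.2, 20.1 and 20.4 CPM, a ratio of 0.656 (0.613 to 0.702), and NPM1P46 had 8.12, 13.4 and 13.2 CPM, a ratio of 0.608 (0.558 to 0.661). Of these 3 copies, NPM1P24 and NPM1P46 passed the 1.5-fold rule. The lowest NPM1 copies with 100 or more control reads were NPM1P40 (24, 92 and 110 reads, log2 ratio -1.44), NPM1P8 (60, 169 and 164 reads, -1.004) and NPM1P26 (55, 146 and 169 reads, -0.92). NPM1P9 went the other way, with 247, 296 and 383 reads and a ratio of 1.17 whose interval, 0.983 to 1.39, includes 1.

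HMGN2 encodes a nucleosome-binding protein, and all 14 of its copies were below 0, with a median of -0.43. HMGN2P3 had 13.9, 17.0 and 16.2 CPM, a log2 ratio of -0.29. HMGN2P5, with 1 mismatch to the parent over its whole alignment, had 15.4, 15.6 and 14.3 CPM, a ratio of 0.985 (0.921 to 1.05). HMGB1 encodes a DNA-bending chromatin protein, and its copies had a median of -0.12. HMGB1P5, 99.5% identical to HMGB1, had 129, 119 and 124 CPM, a ratio of 1.08 (1.06 to 1.11), while HMGB1 had 590, 538 and 587 CPM. HMGB1P5 was the 1 copy of the 14 with 10000 or more control reads that was above 0. PTMA encodes prothymosin alpha, an acidic nuclear protein. PTMAP5 had 48.7, 58.7 and 57.0 CPM, a log2 ratio of -0.27, and PTMAP4 had 7.15, 6.89 and 6.82 CPM, a ratio of 1.04 (0.938 to 1.15).

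Copies of the other 2 genes had a median log2 ratio of -0.35 (20 copies, 4 lower, 0 higher), with parents at 0.10 and 0.14. FTH1 encodes the heavy chain of the iron store ferritin, and 12 of its 14 copies were below 0. FTH1P2 had 5.16 CPM in the ADAR2+SRSF9 library, 7.16 CPM with ADAR2 alone and 7.07 CPM in the control, a log2 ratio of -0.47. FTH1P4 had 89, 106 and 138 reads, a ratio of 1.18 (0.877 to 1.57). RAN encodes the small GTPase of nuclear transport, and RANP1 had 9.37, 11.4 and 12.4 CPM, a log2 ratio of -0.29.

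Copies of cytoskeleton genes were divided (41 copies, median -0.22, 7 lower, 8 higher, parents from 0.02 to 0.09). The copies of the actin genes ACTB and ACTG1 and of the actin-severing protein gene CFL1 followed the pattern above, with family medians of -0.60, -0.55 and -0.43. ACTBP2 had 231, 490 and 474 reads, a ratio of 0.661 (0.562 to 0.774), and ACTG1P1 had 113, 232 and 248 reads, a ratio of 0.683 (0.540 to 0.858). CFL1P1, the least identical copy with 100 or more control reads at 85.9%, had 111, 172 and 206 reads, a ratio of 0.904 (0.705 to 1.15).

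The copies of KRT8 and KRT18, which encode the paired keratins of simple epithelia, did not share the pattern for ADAR2+SRSF9 over ADAR2. Their 26 copies had a median log2 ratio of 0.05 for ADAR2+SRSF9 over ADAR2, with 1 lower and 7 higher by 1.5-fold. The other 231 copies had a median of -0.46, with 69 lower (29.9%) and 4 higher, and the difference between the sets was not tested. GC content was 56.5% in the median keratin copy and 47.2% in the median of all copies, and its part in the difference was not tested. Depth also differed, with a median of 41 control reads in the keratin copies and 193 in all copies, and its part was not tested. KRT8 stood at 24.4, 24.01 and 21.6 CPM and KRT18 at 17.6, 16.5 and 15.9 CPM in the ADAR2+SRSF9, ADAR2 and control libraries, the lowest levels of the 24 parents. KRT18P31 had 52, 12 and 61 reads, a ratio of 5.86 (3.20 to 12.5), and KRT18P5 had 47, 42 and 47 reads, a ratio of 1.56 (1.01 to 2.44). KRT8P33 had 165, 144 and 173 reads, a ratio of 1.602 (1.28 to 2.02), and KRT8P50 had 61, 32 and 70 reads, a ratio of 2.64 (1.71 to 4.23). These 4 copies overlap NIPBL, KLHL22, CEP120 and TTBK2 on the same strand, genes whose own log2 ratios were -0.04, 0.16, -0.07 and 0.00. KRT8P12, with 581, 702 and 848 reads, had a ratio of 1.16 (1.04 to 1.30). KRT18P17 was the 1 keratin copy lower by 1.5-fold, with 57, 125 and 315 reads and a ratio of 0.640 (0.458 to 0.880). Summed, the 26 copies had 15.7 CPM in the ADAR2+SRSF9 library, 13.5 CPM with ADAR2 alone and 18.4 CPM in the control.

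Of the 11 copies higher in the ADAR2+SRSF9 library than in the ADAR2 library, 10 had under 100 control reads. Another gene on the same strand overlapped 6 of these 11. Of the 70 lower copies, 25 had under 100 control reads and 8 overlapped such a gene. Over all 257 copies, 105 had under 100 control reads and 57 overlapped such a gene. Among the 152 copies with 100 or more control reads, 143 were below 0, 45 were lower and 1 was higher by 1.5-fold. Among the 105 copies with fewer, the median was -0.28, with 25 lower and 10 higher. Shares of all rows were not computed for these ranges of control reads. Outside same-strand genes, 62 of 199 copies were lower (31.2%) and 5 higher. The highest ratios among copies with 100 or more control reads, beside those named above, were those of KRT8P36 (100, 125 and 465 reads, log2 ratio 0.16), HNRNPA1P55 (78, 100 and 112 reads, 0.13) and HNRNPA1P45 (50, 66 and 130 reads, 0.08).

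The log2 ratio had no single trend with how closely a copy resembled its parent. The 17 copies that were 98% identical or more had a median log2 ratio of -0.28 for ADAR2+SRSF9 over ADAR2, and none was lower by 1.5-fold. Copies from 96 to 98% (39 copies) had a median of -0.45 with 8 lower, those from 94 to 96% (62) a median of -0.55 with 25 lower, and those from 92 to 94% (69) a median of -0.50 with 22 lower. From 88 to 92% (55 copies) the median was -0.27 with 14 lower, and under 88% (14) it was -0.12 with 1 lower. Spearman's rho of identity with the log2 ratio was -0.09 over 256 copies, 0.25 over the 151 copies with 100 or more control reads and 0.01 over the 230 copies outside the keratin families. These are descriptions across copies that share libraries and parents. The bins also differed in depth, with a median of 15029 control reads at 98% or more and 39 in the bin with fewest, and the part of depth was not tested.

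**Figure D2:**
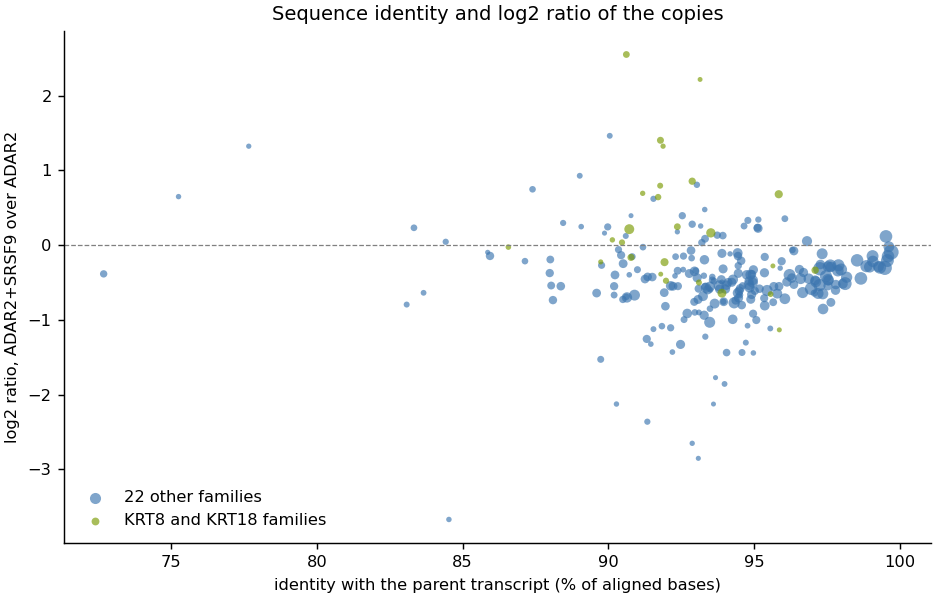
Log2 ratio of ADAR2+SRSF9 over ADAR2 (vertical axis) against the percent of aligned bases shared with the parent (horizontal axis), 1 point per copy, sized by control reads and with the 2 keratin families in green. The points at 98% or more lie between -0.52 and 0.12, and those from 92 to 94% between -2.85 and 2.22.

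Levels were also taken as a percent of the parent's reads, where control values are given as a description. The read count of EEF1A1P5 equalled 18.3% of the parent's own count in the ADAR2+SRSF9 library, 20.4% in the ADAR2 library and 19.5% in the control. Whole families gave 28.8, 34.7 and 32.4% for EEF1A1, 9.68, 13.2 and 12.3% for HNRNPA1, 5.35, 7.54 and 6.81% for NPM1 and 16.4, 23.3 and 24.9% for FTH1 in the same libraries. The keratin families gave 49.9, 43.4 and 61.8% for KRT8 and 19.8, 18.7 and 31.8% for KRT18. This percent was thus lower in the ADAR2+SRSF9 library than in the ADAR2 library for the first 4 families and higher for both keratins. The read count of HMGB1P5 equalled 21.9, 22.1 and 21.1% of that of HMGB1. Per kilobase of transcript, the median copy stood at 0.142% of its parent's level in the ADAR2+SRSF9 library, 0.232% in the ADAR2 library and 0.239% in the control. Only 9, 10 and 11 copies were above 10% on that scale. The parent's length was that of the transcript best aligned to each copy, so it differed between copies of 1 parent. For HNRNPA1 it was 4121 bases beside HNRNPA1P10 and 1842 bases beside HNRNPA1P45, and these percentages depend on that choice.

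**Figure D3:**
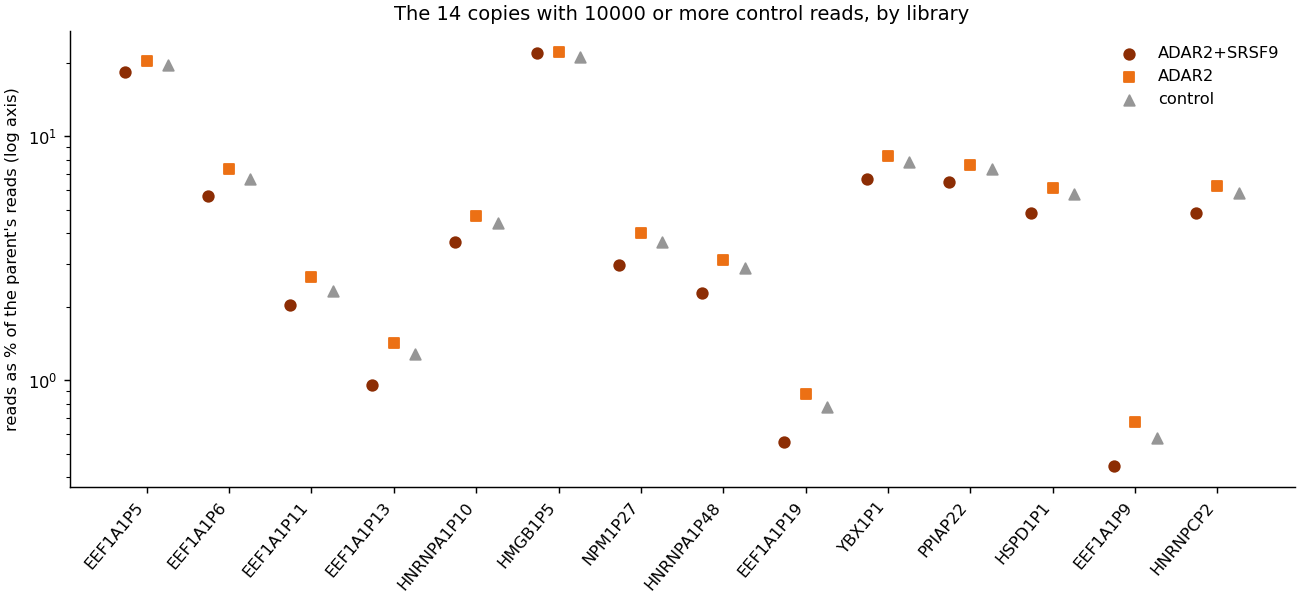
Reads of each of the 14 copies with 10000 or more control reads as a percent of the parent's reads (log axis), in the ADAR2+SRSF9 (circle), ADAR2 (square) and control (triangle) libraries, 1 library per symbol. The circle lies below the square for each of the 14 copies, by least for HMGB1P5, at 21.9 and 22.1%.

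The control counts also chose the copies, so for ADAR2 over control and for ADAR2+SRSF9 over control the counts are given with nothing read from them. The median copy had a log2 ratio of 0.03 for ADAR2 over control, with 20 lower by 1.5-fold (7.78%, against 5.35% of all rows) and 9 higher (3.50%, against 2.73%). The parents had a median of -0.06, from -0.15 to 0.18. Of the 20 lower copies 10 were keratin copies, which had a median of -0.38. KRT8P36 had 0.931 CPM with ADAR2 alone and 3.01 CPM in the control, a log2 ratio of -1.69, and KRT18P17 had 0.931 and 2.04 CPM, a log2 ratio of -1.13. HNRNPA1P45 had 0.492 and 0.841 CPM, a log2 ratio of -0.77. The highest copies with 100 or more control reads were GAPDHP72 (2.65 and 1.62 CPM, log2 ratio 0.71), HNRNPA1P22 (1.68 and 1.05 CPM, 0.67) and FTH1P3 (2.70 and 1.70 CPM, 0.66). In the ADAR2+SRSF9 library these 3 had 1.502, 1.02 and 1.87 CPM.

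For ADAR2+SRSF9 over control the median copy had a log2 ratio of -0.41, with 67 lower by 1.5-fold (26.1%, against 7.51% of all rows) and 5 higher (1.95%, against 4.08%). The 26 keratin copies had a median of -0.26, with 6 lower (23.1%) and 2 higher (7.69%) by 1.5-fold. Summed, they had a ratio of 0.850 (0.798 to 0.905) to the control, beside 0.840 (0.837 to 0.843) for all copies. The parents had a median of 0.04, from -0.21 to 0.27. A copy stood below its parent by a median of 0.44 on the log2 scale, and the family median lay below the parent in 24 of 24 families. The comparisons share libraries with each other, so their values are not separate measurements.

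**Figure D4:**
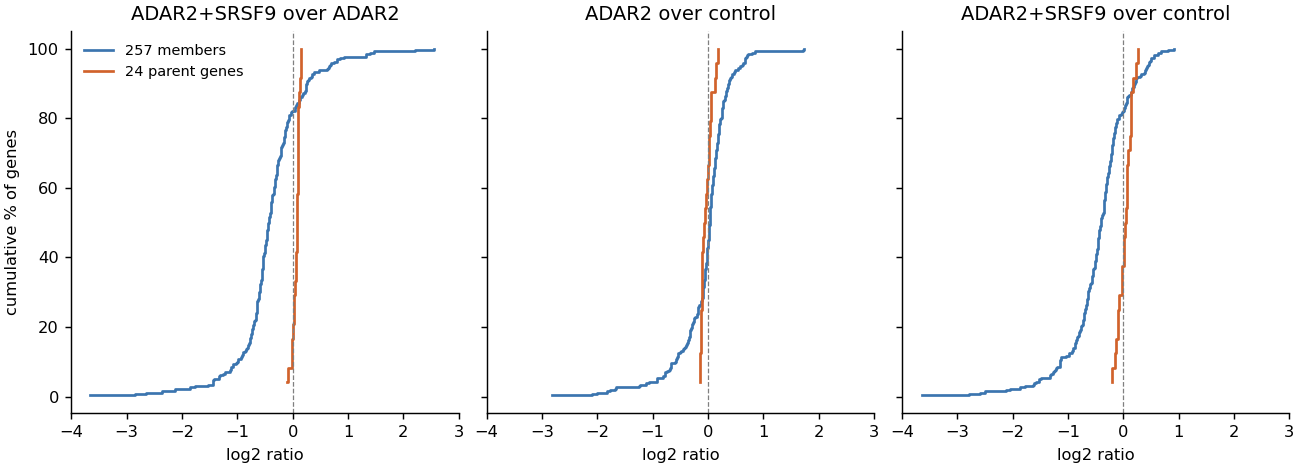
Cumulative percent of genes (vertical axis) by log2 ratio (horizontal axis) for the 257 copies and the 24 parent genes in each of the 3 comparisons, from 1 library per group. The copies reach 50% at -0.44, 0.03 and -0.41 from left to right, and the parents at 0.08, -0.06 and 0.04.

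Copies of other genes were set beside the 257 copies, whose median log2 ratio for ADAR2+SRSF9 over ADAR2 was -0.44 with 27.2% lower. The 1169 named copies of further genes had a median log2 ratio of -0.25, with 222 lower (19.0%) and 43 higher by 1.5-fold. The 325 copies of ribosomal protein genes had a median of -0.50, with 106 lower (32.6%) and 3 higher. The copies of abundant non-ribosomal genes lay between these sets, and the differences between the sets were not tested. Intronless genes that arose as copies but still encode proteins had a median of -0.14 over the 13 of 15 that passed the read minimum. All 13 were below 0 and 2 were lower by 1.5-fold. PABPC3, a poly(A)-binding protein gene, had 14.6 CPM in the ADAR2+SRSF9 library, 22.4 CPM with ADAR2 alone and 22.05 CPM in the control, the lowest ratio of the 13, and PCBP1, a poly(C)-binding protein gene, had 98.3, 99.8 and 93.5 CPM, the highest ratio.

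At the read minimum, the copies just inside had 20 control reads, and KRT18P10 had 17 reads in the ADAR2+SRSF9 library and 29 in the ADAR2 library, KRT18P22 had 7 and 13, and KRT18P48 had 8 and 2. Just outside were ACTBP1 (2, 31 and 19 reads in the ADAR2+SRSF9, ADAR2 and control libraries), ACTG1P2 (4, 28 and 18) and FTH1P15 (0, 12 and 18). The 316 rows left out, of which 144 were at 0 in the control, summed to 676, 1039 and 1012 reads, a ratio of 0.911 (0.826 to 1.005) for ADAR2+SRSF9 over ADAR2. The sources used here do not say how reads that match several copies were assigned or whether counting used strand. The values of the copies are therefore uncertain, among them those of the most similar copies and of copies that overlap other genes. The median copy had a read count equal to 0.111% of its parent's in the control. How many reads counted for copies came from their parents was not tested.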

How the data were processed

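RNA of 3 libraries from HEK293T cells (HEK293 in the sample titles), 1 per group, had been purified with Trizol and made into libraries with a directional kit, per the labels' protocols. The submitters' processing notes name STAR, Picard, GATK, SAMtools and the build hg19, without roles. The authors deposited raw read counts per gene, and how they were counted (program, strand setting) is not given in the sources used here. TMM scaling of library size (edgeR 4.0.16, R 4.3.3) gave factors of 0.979 for ADAR2+SRSF9, 1.01 for ADAR2 and 1.01 for the control. Log2 ratios used a prior count of 0.5, weighted by library size, and the intervals are exact Clopper-Pearson intervals at 95%, with no test across libraries (Python 3.11.15, scipy 1.17.1). Gene types, chromosomes and transcripts came from GENCODE v29 on GRCh38, which is not the authors' build, so no coordinates are given. The longest transcript of each copy was aligned locally to each protein-coding parent transcript (Biopython 1.88, match 2, mismatch -3, gap opening -5 and extension -2). A copy was taken as overlapping another gene when its GENCODE span overlapped, in whole or in part, that of a gene on the same strand.

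The copies, their parents, roles and marker lists were chosen with earlier results of these data known. Named are all parents, the copy with most control reads per parent, the 10 lowest and highest copies with 100 or more control reads between the ADAR2+SRSF9 and ADAR2 libraries, the 3 lowest and highest between ADAR2 and control, the rows nearest the read minimum, and the most and least identical copies. The sequences to show, with EEF1A1P19, EEF1A1P11, EEF1A1P12, EEF1A1P13, NPM1P24, NPM1P46, KRT18P31 and KRT18P5, were chosen after their values were seen. So were KRT8P50 and the genes that keratin copies overlap.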

Additional observations from a re-analysis of the deposited data

How the results depend on the processing

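The median log2 ratio of the copies stayed between -0.48 and -0.40 for ADAR2+SRSF9 over ADAR2, between -0.45 and -0.35 for ADAR2+SRSF9 over control and between 0.01 and 0.073 for ADAR2 over control under every setting tried, 0.073 being the value with a GC trend removed. No paired analysis was possible because each group is 1 library. Counts of copies 1.5-fold apart moved more. With 100 or more control reads (152 copies) there were 45 lower and 1 higher for ADAR2+SRSF9 over ADAR2, 3 and 3 for ADAR2 over control, and 43 and 1 for ADAR2+SRSF9 over control. At 2-fold these were 23 and 6, 11 and 2, and 27 and 0, and with the whole interval beyond 1.5-fold 20 and 3, 7 and 2, and 20 and 0. For ADAR2+SRSF9 over ADAR2 the lower copies were 8.95% against 2.61% of all rows at 2-fold, and 7.78% against 1.46% with the whole interval beyond 1.5-fold. At these thresholds no share of all rows was computed for higher copies or for the comparisons with the control. Nor was it recomputed at other read minimums, so those counts have no share of all rows beside them. With no minimum, 472 rows with a read in any library were counted, and 20, 22 and 18 were higher in the same order of comparisons. Of these rows 84 were lower for ADAR2+SRSF9 over ADAR2 (17.8%), beside 27.2% of the 257 copies. Higher copies for ADAR2+SRSF9 over control numbered 3 with plain library totals, 8 with 10 control reads, 8 with 20 reads in any library, 3 with the GC trend removed, 1 outside same-strand genes and 3 without the keratin families. Outside same-strand genes 5 were higher for ADAR2+SRSF9 over ADAR2, and 12 lower and 3 higher for ADAR2 over control. Without the keratin families 4 were higher for ADAR2+SRSF9 over ADAR2 and 10 lower for ADAR2 over control. The cause of these moves was not tested beyond the change in the copies counted or in the threshold. The last 3 settings were chosen after seeing the data. Spread was wider among copies with few reads, and the part of counting error in it was not tested: the SD of the log2 ratio was 1.12 among copies with 20 to 50 control reads and 0.188 among those with 10000 or more.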
